A study of Homo sapiens with 15 samples.

Results

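The scaffold and MARVEL genes of the tight junction were followed in Caco-2 cells exposed to dishwasher rinse aid. They are OCLN, MARVELD2 and MARVELD3 of the MARVEL family, the adhesion molecule gene F11R, and the plaque genes TJP1, TJP3, MAGI1, CGN and CGNL1. The 9 genes were taken by symbol, for their known place at the junction, and each was found by its Ensembl identifier in all 15 count files, among 60601 identifiers that the files share. All 9 also passed the filter on low counts, as 9 of 13158 tested genes.

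Caco-2 is an established human colorectal carcinoma line whose confluent cells form an enterocyte-like sheet. The study has 3 groups of 5 polyadenylated RNA libraries: monolayers left unexposed as controls, monolayers given rinse aid diluted 1:40000, and monolayers given rinse aid at 1:10000, a solution 4 times as concentrated. Exposure lasted 24 hours. All samples come from this 1 line, and no label states whether replicates were separate cultures, so the p-values below measure only the spread between these samples, which may be technical. The comparisons ask how a barrier epithelium responds to the product, and here how its junction plaque does at the level of RNA.

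Tight junctions are belts of contact near the apical edge of epithelial cells that limit what passes between neighbours. Occludin, tricellulin and MarvelD3, the products of OCLN, MARVELD2 and MARVELD3, span the membrane several times and share a MARVEL domain. The ZO proteins, among them those of TJP1 and TJP3, sit on the inner face and tie membrane proteins to each other and to actin. Cingulin and paracingulin, from CGN and CGNL1, connect the plaque to actin, myosin and microtubules. In the intestine this assembly sets the permeability of the epithelium to ions and larger solutes.

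The libraries were not alike in depth or in how they were counted. Totals lay between 4333226 and 14230853 counts in controls, between 2551839 and 172092447 at 1:40000 and between 5489425 and 9555632 at 1:10000. At 1:40000 the deepest library was replicate 1 and the shallowest replicate 2. Per the file headers, control counts came from RNA STAR and the counts of both rinse aid groups from HISAT2, which are different aligners, and the lists of genes differed too. In any comparison with control, exposure cannot be told apart from the change of aligner and annotation, while the dilutions share both. Of 11 markers of enterocytes and colon epithelium, 10 reached 1 CPM (library-scaled counts, with every library brought to one size) in every group, and KRT20 lay between 0 and 0.2 CPM in controls and at 0 in every rinse aid library. The summed level of the 11 was 10160 to 12039 CPM in controls, 9931 to 11370 at 1:40000 and 12171 to 14208 at 1:10000. Every 1:10000 library lay above every 1:40000 library for KRT8 and KRT18 and below every one for CDH1, VIL1, CDX2, HNF4A and ALPI, while EPCAM, KRT19 and SI overlapped. HNF4A, an intestinal transcription factor, lay at 538 to 629 CPM in controls, 400.3 to 485 at 1:40000 and 193 to 233 at 1:10000. Of 6 fibroblast markers, 4 reached 1 CPM in each group, with sums of 154 to 163 CPM in controls, 128 to 149 at 1:40000 and 80.7 to 101 at 1:10000. DCN was at 0 in controls and at 1:10000 and at most 0.023 CPM at 1:40000. Endothelial sums stayed at or below 11.6 CPM, leukocyte sums at or below 10.4 and enteroendocrine sums at or below 23.0. KDR, PTPRC, CHGA and NEUROD1, markers of these types, were at 0 in all libraries. PTPRC, CHGA and KRT20 have 14, 6 and 2 annotated transcripts outside the primary assembly. Low counts of such genes were common in the rinse aid files, as given further on. Whether their values of 0 there reflect RNA or counting was not tested. The part of these marker shifts in the results was not tested, and in bulk RNA fewer cells of a type and less RNA per cell cannot be told apart.

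Each gene was placed on GRCh38 with GENCODE 29, and all 9 are protein-coding. Among the membrane proteins, OCLN (ENSG00000197822) spans bases 69492292 to 69558104 of the plus strand of chromosome 5, and MARVELD2 (ENSG00000152939) spans 69415065 to 69444330 on the same strand. MARVELD3 (ENSG00000140832) spans 71626161 to 71642114 of the plus strand of chromosome 16, and F11R (ENSG00000158769) spans 160995211 to 161021348 of the minus strand of chromosome 1. Among the plaque genes, TJP1 (ENSG00000104067) covers 29699367 to 29968865 of the minus strand of chromosome 15, and TJP3 (ENSG00000105289) covers 3708109 to 3750813 of the plus strand of chromosome 19. MAGI1 (ENSG00000151276) covers 65353525 to 66038834 of the minus strand of chromosome 3. CGN (ENSG00000143375) covers 151510510 to 151538692 of the plus strand of chromosome 1, and CGNL1 (ENSG00000128849) covers 57375967 to 57550727 of the plus strand of chromosome 15.

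The annotation also bears on how securely these genes can be counted. OCLN, TJP1 and MARVELD2 have 6, 4 and 6 annotated transcripts outside the primary assembly, on alternate copies of their loci, and the other 6 genes have none. Exons of other genes cover 36.58% of the exon bases of F11R on its own strand and 18.1% of those of MARVELD3 on the opposite strand. Such overlap covers 1.82% for MAGI1, 1.19% for CGNL1 and none for the other members. Whether counting used strand is not given in the sources used here, so reads in shared exon bases cannot be assigned with certainty.

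Promoters were read from RefSeq (GRCh38.p14) as the 250 bases before each annotated start, and 7 of the 9 members had at least 1 window. The first listed window is shown for each of the 4 genes that passed the test between the dilutions, as given further on, so that the letters can be set beside the values. OCLN is shown from chr5:69492297-69492546 on the plus strand, TJP3 from chr19:3708134-3708383 on the plus strand, CGNL1 from chr15:57376255-57376504 on the plus strand and MAGI1 from chr3:66038919-66039168 on the minus strand. RefSeq starts differ from the GENCODE spans given above. The windows of OCLN, TJP3 and CGNL1 lie inside those spans, and that of MAGI1 lies before its span. Sequences run 5′ to 3′ on the gene's strand, and capitals mark matches on either strand to any of the motifs spelled out after them.
OCLN: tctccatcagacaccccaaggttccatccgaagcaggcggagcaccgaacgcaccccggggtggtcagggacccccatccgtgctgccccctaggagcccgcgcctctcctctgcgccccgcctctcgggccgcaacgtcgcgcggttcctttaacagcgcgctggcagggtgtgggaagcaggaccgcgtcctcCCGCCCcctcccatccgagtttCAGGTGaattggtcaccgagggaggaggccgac
TJP3: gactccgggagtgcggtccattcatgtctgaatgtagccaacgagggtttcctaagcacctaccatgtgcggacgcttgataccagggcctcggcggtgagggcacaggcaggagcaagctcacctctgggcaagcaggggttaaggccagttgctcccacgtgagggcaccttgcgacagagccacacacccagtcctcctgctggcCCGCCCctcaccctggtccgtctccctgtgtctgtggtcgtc
CGNL1: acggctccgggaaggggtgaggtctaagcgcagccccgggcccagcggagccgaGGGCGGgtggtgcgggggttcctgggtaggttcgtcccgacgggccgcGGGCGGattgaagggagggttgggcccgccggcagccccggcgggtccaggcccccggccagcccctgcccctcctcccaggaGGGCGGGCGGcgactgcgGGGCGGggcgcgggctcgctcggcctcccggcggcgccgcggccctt
MAGI1: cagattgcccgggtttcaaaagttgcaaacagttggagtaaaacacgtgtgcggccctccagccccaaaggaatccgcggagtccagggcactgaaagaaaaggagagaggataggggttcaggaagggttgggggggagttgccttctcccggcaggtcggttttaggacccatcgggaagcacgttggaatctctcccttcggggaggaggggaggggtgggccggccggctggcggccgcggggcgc
The motifs were the E2-box CAGGTG that Snail and ZEB repressors bind, the grainyhead motif AACCNGTT, the GC box GGGCGG of Sp1 and the AP-1 motif TGANTCA; GC boxes that overlap each other are capitalised as 1 run. Over the 12 windows of the 7 members, the E2-box was in 4 windows, of OCLN, TJP1 and TJP3, against 17.5% of all 35116 RefSeq windows. The GC box was in 9 windows, from 6 members, against 42.6% of all windows, and the grainyhead motif was in 1, that of CGN, against 1.49%. The AP-1 motif was in 0 of the 12, against 6.57% of all windows. In the windows shown, OCLN carries 1 GC box and 1 E2-box, TJP3 a GC box, CGNL1 several GC boxes, and MAGI1 none of the motifs.

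Levels were first compared between the genes, as CPM scaled by the trimmed mean of M-values and divided by exon length in kilobases (CPM per kb). In controls, CGN and F11R both averaged 45.4 CPM per kb and their libraries overlapped. TJP3 followed at 14.6, MARVELD3 at 10.7, MAGI1 at 9.69, TJP1 at 7.7 and OCLN at 5.77, with CGNL1 at 1.86 and MARVELD2 at 1.69 lowest and overlapping. At both dilutions the order at the top was F11R, CGN, TJP3, MAGI1 and MARVELD3, with no overlap between neighbours, at 42.0, 30.8, 19.5, 9.98 and 6.09 CPM per kb at 1:40000 and 38.9, 31.8, 15.4, 7.26 and 5.67 at 1:10000. The dilutions differed in the order of the next pair. CGNL1 lay above OCLN at 1:40000, with 2.35 and 1.38 CPM per kb, and below it at 1:10000, with 1.35 and 2.23. MARVELD2 and TJP1 came last in both, at 0.698 and 0.185 at 1:40000 and 0.676 and 0.193 at 1:10000. OCLN, TJP1 and MARVELD2 have transcripts outside the primary assembly, and low counts of such genes were common in the rinse aid files, as given further on. Whether their places in the rinse aid groups reflect RNA levels or counting was not tested.

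**Figure D1:**
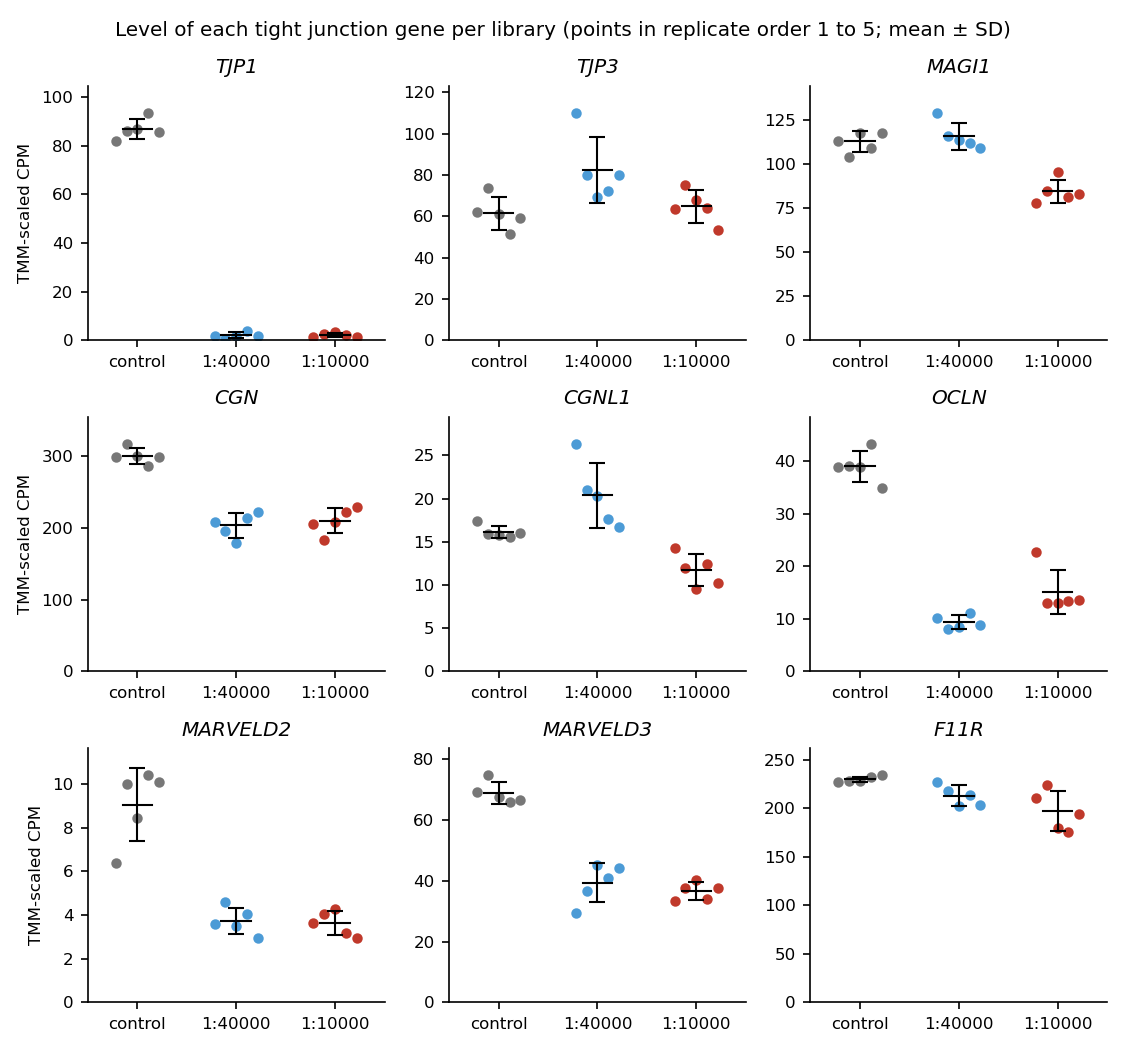
Scaled CPM of each gene in each library (points) with the mean and SD of each group (bar), in the order control, 1:40000 and 1:10000; points run from replicate 1 to 5. CGNL1 and MAGI1 are lower and OCLN is higher in every 1:10000 library than in any 1:40000 library, and TJP1 lies at 4.03 CPM or below in all rinse aid libraries.

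The dilutions, whose files share an aligner and a gene list, carry the main comparison. At 1:10000 against 1:40000, CGNL1, MAGI1 and TJP3 fell and OCLN rose, and the other 5 genes did not pass the test. The largest of these changes was in CGNL1, at 11.7 ± 1.86 CPM at 1:10000 against 20.4 ± 3.77 at 1:40000 (SD, n = 5 each), a 1.77-fold lower level. Each gene was tested across the whole table with edgeR's quasi-likelihood F-test, p-values were adjusted by Benjamini-Hochberg, and an adjusted p under 0.05 counted as a call. So 4 of the 9 members (44.4%) were called, 1 higher and 3 lower, while 57.3% of all tested genes were called, 28.3% higher and 29.1% lower. The groups of libraries did not overlap for 3 members, OCLN, CGNL1 and MAGI1, and for 40.3% of all tested genes. The median log2 fold change was -0.10 over the members and -0.01 over all tested genes.

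Among the ZO and MAGUK scaffolds, MAGI1 encodes an inverted membrane-associated guanylate kinase that gathers junction proteins at the plaque. It stood at 77.9, 84.8, 95.5, 81.5 and 83.4 CPM in replicates 1 to 5 at 1:10000, against 129, 116, 114, 112 and 109 CPM at 1:40000. The groups did not overlap, since the highest 1:10000 library lay below the lowest 1:40000 library. Its log2 fold change was -0.46 ± 0.07 (± SE), a 1.38-fold lower level (edgeR quasi-likelihood test, Benjamini-Hochberg adjusted p = 2.24e-06). With any 1 library left out it stayed between -0.51 and -0.41.

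TJP3 encodes ZO-3, an epithelial member of the ZO family. Its 1:10000 libraries held 63.5, 75.3, 68.0, 63.9 and 53.2 CPM, against 109.9, 80.2, 69.3, 72.5 and 80.2 CPM at 1:40000. The groups overlapped, with replicate 2 at 1:10000 above replicates 3 and 4 at 1:40000, and replicate 1 at 1:40000 stood above all others. The fitted difference on the log2 scale was -0.36 ± 0.12, a 1.29-fold lower level (edgeR quasi-likelihood test, Benjamini-Hochberg adjusted p = 0.0167). The call was lost without that library, when the log2 fold change was -0.21 and the adjusted p 0.0559, and without replicates 1 and 2 at 1:40000, the deepest and the shallowest, when they were -0.18 and 0.139. It held in replicates 3 to 5 of each group taken alone, as given further on, though these are part of the same libraries.

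TJP1 encodes ZO-1, the scaffold to which occludin and the claudins bind. In the rinse aid libraries it was barely counted, with 1.4, 2.44, 3.66, 2.14 and 1.24 CPM at 1:10000, against 1.78, 0.764, 2.0, 4.03 and 1.84 CPM at 1:40000. These values come from 8 to 29 counts per library at 1:10000, against 2 to 309 at 1:40000, and the groups overlapped. For TJP1 the log2 fold change was 0.08 ± 0.28, with a 95% interval of -0.50 to 0.66 (edgeR quasi-likelihood test, Benjamini-Hochberg adjusted p = 0.825). The interval is wide enough to hold differences in either direction.

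The cytoskeletal linkers parted from each other. CGNL1 stood at 14.3, 12.0, 9.58, 12.4 and 10.2 CPM at 1:10000, against 26.3, 21.0, 20.3, 17.6 and 16.7 CPM at 1:40000. All 1:10000 libraries lay below all 1:40000 libraries, and within each dilution replicate 1 was the highest. For CGNL1 the log2 fold change was -0.82 ± 0.13, with a 95% interval of -1.09 to -0.56 (edgeR quasi-likelihood test, Benjamini-Hochberg adjusted p = 7.04e-06). Its relative CGN stood at 206, 184, 209, 223 and 229 CPM at 1:10000, against 209, 196, 179, 214 and 223 CPM at 1:40000. The CGN groups overlapped over most of their range. Its log2 fold change was 0.04 ± 0.07, with a 95% interval of -0.09 to 0.18 (edgeR quasi-likelihood test, Benjamini-Hochberg adjusted p = 0.59). As a ratio within each library, which no scaling touches, there were 4.47 to 6.93 CGNL1 counts per 100 CGN counts at 1:10000 (mean 5.61 ± 1.11) against 7.48 to 12.6 at 1:40000 (mean 10.1 ± 2.15). These groups did not overlap either.

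OCLN, the gene of occludin, was the only called member that was higher at 1:10000. Its libraries held 22.7, 13.0, 13.0, 13.3 and 13.5 CPM at 1:10000, against 10.2, 8.02, 8.49, 11.2 and 8.91 CPM at 1:40000. Every 1:10000 library lay above every 1:40000 library, and replicate 1 at 1:10000 stood far above the other four. The log2 fold change was 0.68 ± 0.14, a 1.6-fold higher level (edgeR quasi-likelihood test, Benjamini-Hochberg adjusted p = 0.000216). Without replicate 1 at 1:10000 it was 0.48 with an adjusted p of 0.00103. OCLN has transcripts outside the primary assembly, and so do genes next to it. CDK7, a neighbour on chromosome 5 chosen after its values were seen, held 53.9 to 59.8 CPM in controls, 0.184 to 0.764 at 1:40000 and 0.819, 14.6, 1.14, 1.22 and 15.7 in replicates 1 to 5 at 1:10000. Its high libraries at 1:10000 were replicates 2 and 5, and that of OCLN was replicate 1. CDK7 is only 1 neighbour, and library values of the others are not given here. Of the others with such transcripts, MRPS36 had a log2 fold change of 0.29 at 1:10000 over 1:40000 and RAD17 of 0.25. CCDC125 had -0.26 and AK6 -0.77. Whether the difference of OCLN shares a source with such values was not tested.

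The other MARVEL genes gave no call between the dilutions. MARVELD2, the gene of tricellulin, a protein of contacts where 3 cells meet, held 3.63, 4.07, 4.29, 3.2 and 2.95 CPM at 1:10000, against 3.61, 4.58, 3.52, 4.03 and 2.97 CPM at 1:40000. Its groups overlapped almost fully, and the 95% interval of the log2 fold change ran from -0.36 to 0.37 (edgeR quasi-likelihood test, Benjamini-Hochberg adjusted p = 0.991). MARVELD3 held 33.2, 37.6, 40.4, 34.0 and 37.5 CPM at 1:10000, against 29.4, 36.7, 45.1, 40.9 and 44.3 CPM at 1:40000. These groups overlapped as well, and replicate 1 at 1:40000 was the lowest of all 10 libraries. This gene had a log2 fold change of -0.10 ± 0.10 (95% interval -0.31 to 0.11, edgeR quasi-likelihood test, Benjamini-Hochberg adjusted p = 0.415). Without that library it was -0.22, which passed with an adjusted p of 0.0232.

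F11R encodes JAM-A, an immunoglobulin-like adhesion molecule of the junction. Its libraries held 210.2, 224, 179.8, 176 and 194 CPM at 1:10000, against 227, 218, 202, 214 and 203 CPM at 1:40000. The groups overlapped through replicates 1 and 2 at 1:10000. F11R had a log2 fold change of -0.11 ± 0.06 (95% interval -0.24 to 0.02, edgeR quasi-likelihood test, Benjamini-Hochberg adjusted p = 0.124). Without replicate 2 at 1:10000 it was -0.15, with an adjusted p of 0.044.

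**Figure D2:**
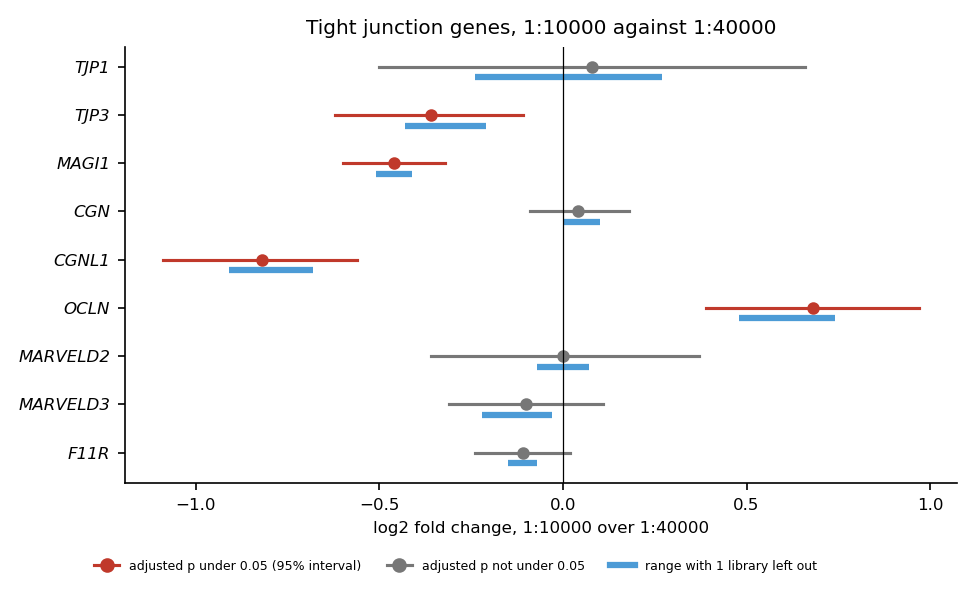
Log2 fold change of each gene at 1:10000 over 1:40000 (points) with its 95% interval (thin lines) and the range when any 1 library is left out (blue bars). CGNL1 at -0.82, MAGI1 at -0.46 and TJP3 at -0.36 lie left of 0 and OCLN at 0.68 lies right of it, with intervals that leave out 0.

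Libraries numbered 1 and 2 tended only weakly to deviate from their group in another direction than libraries 3 to 5. Pairs across groups with different numbers from the same set had a median correlation of deviations of 0.0625 (-0.088 to 0.268). Pairs of 1 library from each set had a median of -0.065 (-0.326 to 0.139), and these ranges overlap. The comparison was repeated within each set, a choice made after seeing the data. In replicates 1 and 2, the log2 fold changes at 1:10000 over 1:40000 were 0.89 for OCLN, -0.53 for TJP3, -0.92 for CGNL1 and -0.63 for MAGI1. In replicates 3 to 5 they were 0.52 for OCLN, -0.24 for TJP3, -0.78 for CGNL1 and -0.35 for MAGI1. All 4 genes were called in both sets, with adjusted p-values between 4.99e-05 and 0.00433 in the first and between 1.82e-06 and 0.0122 in the second (edgeR quasi-likelihood test, Benjamini-Hochberg adjusted). Of all tested genes, 5629 of 13125 were called in the first set and 7569 of 13227 in the second. Both sets are parts of the libraries in which the 4 genes had already been called, so these calls are not independent of the first. F11R was called within replicates 3 to 5, at -0.16 with an adjusted p of 0.00567, and so was MARVELD3, at -0.21 with an adjusted p of 0.0225. Within replicates 1 and 2 neither was called by the same test. There F11R was at -0.06 with an adjusted p of 0.655. MARVELD3 was at 0.15, in the other direction, with an adjusted p of 0.416.

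How the genes varied together was described over the 10 rinse aid libraries, which share their dilution groups, so that any pair of genes that differs between the dilutions is correlated. CGNL1 and MAGI1 had a Pearson r of 0.82 on log2 CPM, and TJP3 had 0.76 with each of them. OCLN and MAGI1 had -0.82. Of the 10397 genes that averaged 5 CPM or more, those most like CGNL1 were BCL2L14, GLUL and UNC93A, with r of 0.981, 0.978 and 0.97. Those most like OCLN were TMEM167B, BRWD1 and KAT14, with r of 0.952, 0.945 and 0.944. Those most like MAGI1 were SPG11, PKP4 and FREM2, with r of 0.987, 0.986 and 0.985.

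Against control, RNA of CGN and MARVELD3 was lower at both dilutions, F11R and MAGI1 were lower at 1:10000, and CGNL1 was called on either side of control, higher at 1:40000 and lower at 1:10000. These comparisons share their control libraries and differ from control in aligner and annotation. At 1:10000, 8 of the 9 members were called, 0 higher and 8 lower, while 71.0% of all tested genes were called, 34.8% higher and 36.2% lower. At 1:40000, 7 of the 9 were called, 2 higher and 5 lower, while 52.1% of all tested genes were called, 26.1% higher and 26.0% lower. Libraries did not overlap with control for 8 members at 1:10000 (57.8% of all tested genes) and for 5 at 1:40000 (36.3%). All of these counts include OCLN, TJP1 and MARVELD2, which were called lower without overlap in both comparisons. Their low counts in the rinse aid files may come from counting, as given further on, which was not tested. Of the 6 members without transcripts outside the primary assembly, 0 were higher and 5 lower at 1:10000, with a median log2 fold change of -0.44, and 2 were higher and 2 lower at 1:40000, with a median of -0.03. Over all tested genes the median was -0.02 at 1:10000 and -0.002 at 1:40000.

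CGN held 299.8, 317, 300, 287 and 299 CPM in controls, above every library of either dilution. Its log2 fold change was -0.51 ± 0.07 at 1:10000 and -0.56 ± 0.06 at 1:40000 (edgeR quasi-likelihood test, Benjamini-Hochberg adjusted p = 1.34e-07 and 9.95e-08). MARVELD3 held 69.3, 74.7, 67.5, 65.9 and 66.7 CPM in controls, again above all rinse aid libraries. It stood at -0.91 ± 0.10 at 1:10000, a 1.88-fold lower level, and at -0.81 ± 0.10 at 1:40000 (adjusted p = 1.05e-08 and 1.34e-07 by edgeR with Benjamini-Hochberg adjustment). Both genes thus had close values at the 2 dilutions and a gap to control that follows the aligner as well as the exposure.

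MAGI1 held 113, 104, 118, 109.5 and 118 CPM in controls. The 1:10000 libraries lay below all of these, and the 1:40000 libraries overlapped them. Its log2 fold change against control was -0.41 ± 0.07 at 1:10000 (adjusted p = 6.33e-06 by edgeR with Benjamini-Hochberg adjustment), and at 1:40000 it was 0.05 ± 0.07, with a 95% interval of -0.09 to 0.18 (adjusted p = 0.559).

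CGNL1 held 17.4, 15.9, 15.8, 15.6 and 16.0 CPM in controls, between the dilutions. All 1:10000 libraries lay below the controls, while 1 of the 1:40000 libraries, replicate 5 at 16.7 CPM, lay within their range. The log2 fold change was -0.46 ± 0.14 at 1:10000 and 0.36 ± 0.12 at 1:40000 (adjusted p = 0.0041 and 0.0153 by edgeR with Benjamini-Hochberg adjustment). The second call was lost without replicate 1 at 1:40000, when the log2 fold change was 0.22 and the adjusted p 0.111. Within replicates 1 and 2 the first was -0.31 with an adjusted p of 0.156. In controls there were 5.0 to 5.8 CGNL1 counts per 100 CGN counts (mean 5.37 ± 0.29).

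TJP3 held 62.1, 73.9, 61.2, 51.7 and 59.1 CPM in controls, and both dilutions overlapped this range. Its log2 fold change against control was 0.07 ± 0.13 at 1:10000 (95% interval -0.19 to 0.34, adjusted p = 0.622) and 0.43 ± 0.12 at 1:40000 (adjusted p = 0.00594, both by edgeR with Benjamini-Hochberg adjustment). F11R held 227, 228, 228, 232 and 234 CPM in controls, the most even of the 9 genes. It stood at -0.23 ± 0.06 at 1:10000, where all libraries lay below the controls, and at -0.11 ± 0.06 at 1:40000, where they reached them (adjusted p = 0.00251 and 0.134 by edgeR with Benjamini-Hochberg adjustment). Within replicates 1 and 2 the value for F11R at 1:10000 was -0.07 with an adjusted p of 0.561, and within replicates 3 to 5 the value at 1:40000 was -0.16 with an adjusted p of 0.00499.

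**Figure D3:**
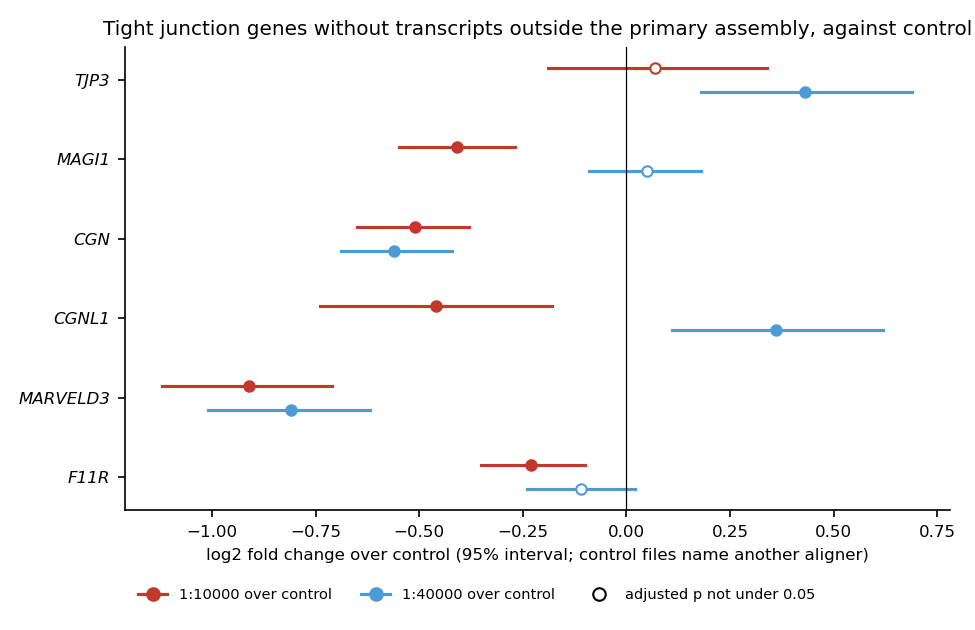
Log2 fold change over control at 1:10000 (red) and at 1:40000 (blue) of the 6 genes without transcripts outside the primary assembly, with 95% intervals; open points did not pass the test. CGN and MARVELD3 lie left of 0 at both dilutions, and CGNL1 lies at -0.46 at 1:10000 and at 0.36 at 1:40000.

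OCLN, TJP1 and MARVELD2 are given against control as levels only. TJP1 averaged 86.8 ± 4.06 CPM in controls, 2.08 ± 1.19 at 1:40000 and 2.18 ± 0.967 at 1:10000. OCLN averaged 39.0 ± 2.93 CPM in controls, 9.35 ± 1.29 at 1:40000 and 15.1 ± 4.26 at 1:10000. MARVELD2 averaged 9.06 ± 1.67 CPM in controls, 3.74 ± 0.602 at 1:40000 and 3.63 ± 0.564 at 1:10000. Low counts in the rinse aid files were common among genes of this kind. Of 425 tested genes with transcripts outside the primary assembly, 222 (52.2%) were at least 2-fold lower than control in both rinse aid groups, against 225 of 12733 other genes (1.77%). At least 32-fold lower, the range of TJP1, were 136 (32.0%) against 14 (0.11%). Their median log2 fold change was -1.85 at 1:10000 and -1.62 at 1:40000 against control, but 0.00 between the dilutions, where 161 of the 425 (37.9%) were called against 7382 of the other genes (58.0%). Between the dilutions their fold changes were still spread more widely than those of the other genes, on both sides of 0. Within 1 Mb of OCLN, MARVELD2 aside, 5 of 5 tested genes with such transcripts and 2 of 5 without were at least 2-fold lower in both, and near TJP1 2 of 2 with them. OCLNP1, an annotated pseudogene of OCLN, had 0 counts in controls and at most 8 counts in any rinse aid library.

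**Figure D4:**
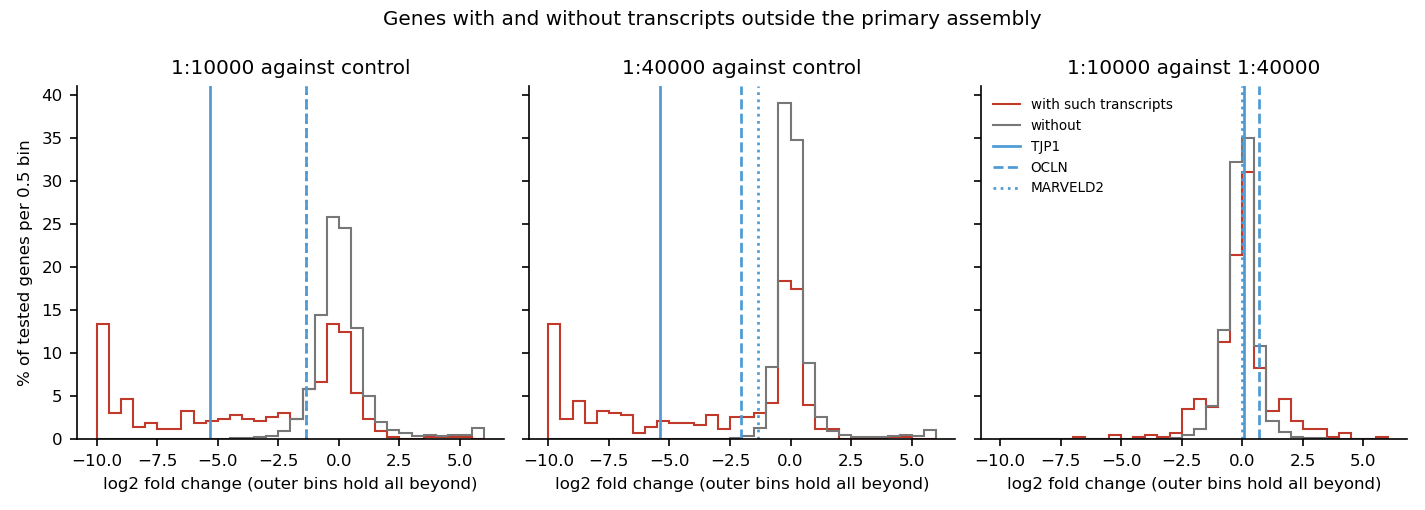
Share of tested genes per 0.5 step of log2 fold change, for genes with (red) and without (grey) transcripts outside the primary assembly, in each comparison; the outermost steps hold all values beyond them. Blue lines mark TJP1, OCLN and MARVELD2, and in the left panel those of OCLN and MARVELD2 coincide at -1.35. The red curves have a long lower tail in both comparisons with control, and both curves centre near 0 between the dilutions. There the red curve is the wider one. From -2.0 to -1.5 it holds 4.71% against 1.23% of the grey genes, and from 1.5 to 2.0 it holds 4.71% against 0.809%. The step from 0.5 to 1.0, where OCLN lies, holds 8.24% against 10.8%.

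Other junction genes were counted from 4 lists chosen by function: 40 genes, of which 34 passed the filter. At 1:10000 against 1:40000, 13 were higher and 12 lower (73.5% called), with a median log2 fold change of 0.02, while 57.3% of all tested genes were called, 28.3% higher and 29.1% lower. The myosin light chain genes MYL12A and MYL12B and the transcription factor gene YBX3 rose, while the myosin kinase gene MYLK and the scaffold gene MAGI3 fell. Against control, 11 were higher and 10 lower at 1:10000, where 71.0% of all tested genes were called, and 8 were higher and 12 lower at 1:40000, where 52.1% were.

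Of 5 tested membrane proteins beside the members, 2 rose and 1 fell. ESAM, an adhesion molecule related to F11R, averaged 33.2 ± 3.86 CPM at 1:10000 against 16.1 ± 3.31 at 1:40000, a log2 fold change of 0.99 ± 0.12 (edgeR with Benjamini-Hochberg adjustment, adjusted p = 2.24e-07). LSR, which recruits tricellulin to tricellular contacts, rose by 0.22 ± 0.06, and BVES, a membrane protein that binds ZO-1, fell by 0.53 ± 0.14. Of 9 tested scaffolds, 3 rose and 4 fell. The highest were the ZO-binding protein USP53, at 90.2 ± 8.42 CPM at 1:10000 against 50.9 ± 4.68 at 1:40000, and the angiomotin-like AMOTL2, at 515 ± 11.7 against 299.7 ± 44.9. AMOTL1 fell by 0.41 ± 0.08. MAGI3, the paralog of MAGI1, fell by 0.45 ± 0.08, close to the -0.46 ± 0.07 of MAGI1.

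Of 14 tested actomyosin regulators, 4 rose and 6 fell. The myosin regulatory light chains MYL12A and MYL12B rose by 0.77 ± 0.07 and 0.75 ± 0.07, while another light chain gene, MYL9, averaged 201 ± 25.0 CPM at 1:10000 against 286 ± 30.3 at 1:40000 and was called lower. The largest rise of the list was in ARHGEF2, which encodes GEF-H1, a guanine nucleotide exchange factor that cingulin binds, at 174 ± 17.0 CPM at 1:10000 against 77.4 ± 16.8 at 1:40000. MYLK, the kinase that phosphorylates such light chains, averaged 19.1 ± 1.8 CPM at 1:10000 against 49.0 ± 6.04 at 1:40000, a log2 fold change of -1.39 ± 0.09 (edgeR with Benjamini-Hochberg adjustment, adjusted p = 5.13e-12). ARHGEF18, an exchange factor gene of the same family, fell by 0.44 ± 0.07, though other genes cover 76.4% of its exon bases. Of 6 signalling and nuclear partners, 4 rose and 1 fell. YBX3, which encodes ZONAB, a transcription factor that ZO-1 binds, averaged 401 ± 59.5 CPM at 1:10000 against 207 ± 9.51 at 1:40000. The ubiquitin ligase ITCH, which targets occludin, rose by 0.36 ± 0.06, and SYMPK, the gene of symplekin, fell by 0.52 ± 0.07. The fibroblast marker COL1A1 also differed between the dilutions, at 28.3 to 40.5 CPM at 1:10000 against 61.0 to 108 at 1:40000, while COL3A1, LUM and PDGFRA overlapped, and the part of COL1A1 in these values was not tested.

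**Figure D5:**
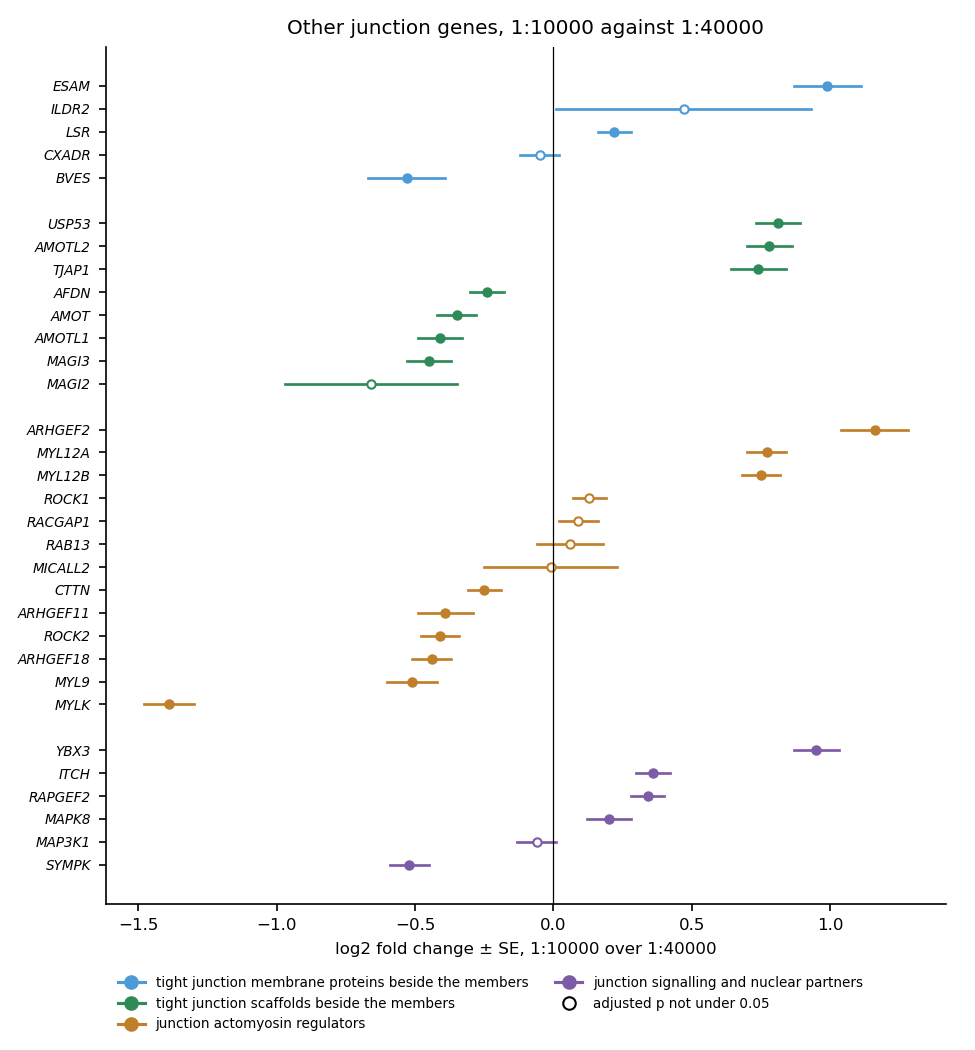
Log2 fold change at 1:10000 over 1:40000 of tested junction genes beside the members, with SE bars and a colour for each list; open points did not pass the test. MYLK lies lowest at -1.39 and ARHGEF2 highest at 1.16, and called genes lie on both sides of 0 in every list.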

How the data were processed

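Polyadenylated RNA of 15 Caco-2 libraries was analysed from raw counts per Ensembl gene, which the authors deposited as 1 file per library; per the file headers they came from RNA STAR (controls) and HISAT2 (both dilutions). The submitters' processing notes also name GRCh38, DESeq2 1.32.0, featureCounts, STAR 2.7.9a and cutadapt, without roles. The annotation release and strand setting are not given in the sources used here. Per the labels, the RNeasy Plus Micro Kit served for isolation and a TruSeq kit for libraries.

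Genes were joined by identifier without version. Symbols were found for 60597 of 60601 shared identifiers, and GENCODE 29 held 58342. In R 4.3.3, edgeR 4.0.16 was run with trimmed mean of M-values scaling, filterByExpr by group, 3 group means over all 15 libraries and the robust quasi-likelihood test, and each comparison was adjusted over 13158 genes. The script was tested on simulated data. SEs were derived from the log2 fold change and the square root of F. CPM are counts scaled to a common library size, and log2 CPM for correlations used a prior count of 2. Counts were fewest for TJP1 and MARVELD2. No pair of libraries agreed within sampling noise.

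Members and lists were chosen with earlier results of these data known. All 9 members are named. Of each list of other junction genes, the 2 called genes with the smallest adjusted p between the dilutions in each direction are named. MYL9, ARHGEF2 and CDK7 were named in addition, after their values were seen. Some genes of the lists are counted but not reported by name here. The 3 genes most like each of the 3 called members with the largest change are also named. Alternatives were other scalings, DESeq2 1.42.0, no filter, 2 groups only, a replicate block, each library left out, 1:40000 without replicates 1 and 2, identifiers summed by symbol and protein-coding genes only. Added after seeing the data were replicates 1 and 2 only, replicates 3 to 5 only, and genes with transcripts outside the primary assembly left out.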

Additional observations from a re-analysis of the deposited data

Results flagged for a closer look

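In 3 of 27 sets of 5 libraries (9 genes in 3 groups), 1 library stood apart from the other four, which chance gives for about 1 set in 20. OCLN at 1:10000 was 22.7 CPM in replicate 1, while the other libraries of that group lay between 13.0 and 13.5 CPM, so the gap made up 0.948 of the range. OCLN is 1 of 222 genes with transcripts outside the primary assembly that were at least 2-fold lower than control in both rinse aid groups. Of these, 22.5% had such a gap at 1:10000, against 5.21% of all other tested genes, so a gap was not rare for genes of this kind. TJP3 at 1:40000 was 109.9 CPM in replicate 1, the deepest library of the series, while the others lay between 69.3 and 80.2 CPM, a gap of 0.731 of the range. CGNL1 in controls was 17.4 CPM in replicate 1, while the others lay between 15.6 and 16.0 CPM, a gap of 0.778 of the range.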

How the results depend on the processing

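No fold change of a called member changed sign under any alternative that was run. CGNL1 and MAGI1 were called lower and OCLN higher at 1:10000 against 1:40000 under every alternative that could test them, with log2 fold changes from -0.92 to -0.64, from -0.63 to -0.35 and from 0.48 to 0.89. Leaving out genes that have transcripts outside the primary assembly removes OCLN, TJP1 and MARVELD2. Of the 6 members left, 5 were called at 1:10000 and 4 at 1:40000 against control. Of all 12741 genes tested in that fit, 4495 were called higher and 4523 lower at 1:10000, and 3348 higher and 3189 lower at 1:40000. Other junction genes called at 1:40000 against control numbered 13 with no filter on low counts and 13 in replicates 1 and 2 alone, against 20 in the reported fit. With 1 library left out at a time, called genes numbered 7076 to 7619 at 1:10000 against 1:40000, 9058 to 9556 at 1:10000 against control and 6254 to 6972 at 1:40000 against control; called members numbered 4 to 5, 8 to 8 and 6 to 7, and other junction genes 24 to 26, 21 to 24 and 17 to 21. F11R passed at 1:10000 against 1:40000 with upper-quartile scaling, at -0.16 with an adjusted p of 0.0273 in edgeR, and with no filter, at -0.18 with an adjusted p of 0.047. No filter moved the share of higher calls to 60.6% at 1:40000 against control (50.2% in the reported fit) and to 42.4% at 1:10000 against 1:40000 (49.3%), and the median log2 fold change of all genes to 0.163 and -0.207 in these comparisons. For each change of call the cause was not tested. With replicate number as a block, 8011, 9593 and 7314 genes and 4, 8 and 7 members were called in the same 3 comparisons, and no member's call changed. Same-numbered libraries had a median correlation of deviations of 0.064 (lowest -0.05) over the 3 comparisons, and of 0.281, 0.106, 0.231, 0.046 and 0.105 for replicates 1 to 5 between the dilutions. Since not every pair exceeded 0.1 and no label gives a pairing, the numbers were not taken to pair the samples. TJP1 rests on as few as 2 counts in a library.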
